A study of Homo sapiens with 2 samples.

Results

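In A549 cells treated with paclitaxel or DMSO, 72 of the 993 transcripts in the expression table were listed at exactly 0 in one library and above 0 in the other. These transcripts, called members here, were selected on the measured values themselves: one of the paired FPKM values had to be 0 and the other had to be above 0. They belonged to 70 of the 812 genes in the table. The 32 transcripts listed at 0 with paclitaxel came from 32 genes, and the 40 listed at 0 with DMSO came from 38 genes. No transcript was listed at 0 in both libraries.

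A549 cells are a line from a human lung adenocarcinoma. The treated cells received 7.22 nM paclitaxel, a drug that binds polymerized tubulin and holds dividing cells in mitosis, for 72 h, and the control cells received the vehicle DMSO for the same time, both in F12K medium with serum. One RNA library was made per condition (n = 1 each), so there is no spread between replicates, no test was made, and a difference between conditions cannot be told apart from a difference between these libraries. FPKM is the estimated number of fragments of a transcript, scaled by its length and by the total of mapped fragments. The table holds only transcripts that passed the authors' own test between the libraries, and the depth of the libraries is unknown. Of the lung epithelium markers KRT7, KRT8, KRT18, KRT19, EPCAM and 9 others, only KRT19 was listed, at 107.4 FPKM with paclitaxel and 22.9 FPKM with DMSO, so the cell type could not be checked further against this table.

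Most human genes give rise to several messenger RNAs. A different promoter changes the first exon, an alternative splice choice includes or leaves out an internal exon or moves its border, and an alternative polyadenylation site changes the last exon. An internal coding exon whose length is a multiple of 3 can be left out without shifting the reading frame. Short reads are shared among the isoforms of a gene wherever their exons are the same, and the program Cufflinks divides them by a likelihood model. An estimate of 0 for one isoform is therefore not the absence of the gene, and is given here as "listed at 0", with no fold change.

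In 4 genes the listed isoforms ran in opposite directions, and in 3 of them the annotated coding parts differ by an internal exon. The sequences show how the annotated isoforms differ, and whether one replaced the other was not tested here. In the sequences below, taken from GENCODE release 44 on build hg38, the whole exon is in capitals. They were chosen after the values had been seen. The first exon was held by the transcript listed at 0 with paclitaxel, the second was left out by it, and the third was left out by the transcript listed at 0 with DMSO.

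ZMIZ2, chr7:44760151-44760228, plus strand, 78 nt, held by ENST00000433667: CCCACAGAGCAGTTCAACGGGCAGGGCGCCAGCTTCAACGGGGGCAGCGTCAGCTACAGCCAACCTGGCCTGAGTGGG
FOXJ3, chr1:42205762-42205863, minus strand, 102 nt, left out by ENST00000361776: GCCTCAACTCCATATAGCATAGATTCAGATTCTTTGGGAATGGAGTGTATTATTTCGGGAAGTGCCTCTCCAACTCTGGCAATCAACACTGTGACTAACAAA
KCNAB2, chr1:6091263-6091307, plus strand, 45 nt, left out by ENST00000378097: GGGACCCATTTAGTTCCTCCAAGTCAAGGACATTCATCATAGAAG

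All 3 exons have a length that is a multiple of 3. The exons of ZMIZ2 and FOXJ3 were also entries of the deposited table of 35827 skipped exon events, and that of KCNAB2 was not. Entries were matched by position only, so an entry does not mean that inclusion of the exon changed.

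For members with a coding splice junction that no other annotated protein-coding transcript of the gene holds, the sequence across the junction shows what sets the isoform apart. Lower case is the last 24 bases of the upstream exon and capitals are the next 24 bases after the splice. The line after each junction is the one that another listed isoform of the gene makes at the same upstream exon.

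MASTL ENST00000342386, intron chr10:27173260-27181479, plus strand: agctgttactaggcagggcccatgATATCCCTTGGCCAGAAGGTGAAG
MASTL ENST00000375940, intron chr10:27173260-27180952, plus strand: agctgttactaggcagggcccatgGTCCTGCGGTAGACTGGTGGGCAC
BUB1 ENST00000535254, intron chr2:110674225-110677969, minus strand: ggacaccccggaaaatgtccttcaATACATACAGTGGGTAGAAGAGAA
BUB1 ENST00000302759, intron chr2:110674366-110677969, minus strand: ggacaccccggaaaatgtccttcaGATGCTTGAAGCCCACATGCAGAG
CDC25C ENST00000415130, intron chr5:138319375-138328483, minus strand: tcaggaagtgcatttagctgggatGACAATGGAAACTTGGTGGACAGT
CDC25C ENST00000323760, intron chr5:138326055-138328483, minus strand: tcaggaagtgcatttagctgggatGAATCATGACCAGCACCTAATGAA
NDRG4 ENST00000562999, intron chr16:58509010-58509300, plus strand: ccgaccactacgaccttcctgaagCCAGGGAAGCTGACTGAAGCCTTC
NDRG4 ENST00000258187, intron chr16:58509010-58509153, plus strand: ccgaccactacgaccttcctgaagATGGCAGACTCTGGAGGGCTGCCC
NAV2 ENST00000396087, intron chr11:20055958-20056529, plus strand: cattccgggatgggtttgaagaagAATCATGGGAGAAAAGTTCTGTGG
NAV2 ENST00000349880, intron chr11:20055958-20062306, plus strand: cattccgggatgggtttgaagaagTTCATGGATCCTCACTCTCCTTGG

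In MASTL, BUB1, CDC25C and NDRG4 the isoform listed at 0 in one library joins the upstream exon to a later one, and in NAV2 it joins to an exon that the other isoform leaves out.

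The transcripts listed at 0 in one library were 3.22% of the table for paclitaxel and 4.03% for DMSO. Since the selection used these very values, the counts describe the table and nothing is read from them. The table held 535 transcripts lower with paclitaxel, of which 32 (5.98%) were at 0 there. It held 458 higher with paclitaxel, of which 40 (8.73%) were at 0 with DMSO.

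Levels in the library above 0 were mostly low. The transcripts listed at 0 with DMSO had 0.662 to 108.5 FPKM with paclitaxel (median 2.25), and those listed at 0 with paclitaxel had 0.452 to 35.4 FPKM with DMSO (median 2.99). At least 5 FPKM was reached by 4 of the 40 transcripts listed at 0 with DMSO and by 7 of the 32 listed at 0 with paclitaxel. Under 1 FPKM were 6 of the 40 and 3 of the 32. The 921 transcripts above 0 in both libraries had 0.447 to 2101.6 FPKM in their higher library (median 7.68). The plot of levels shows how far HBB and EEF1D stand from the rest of their columns.

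**Figure D1:**
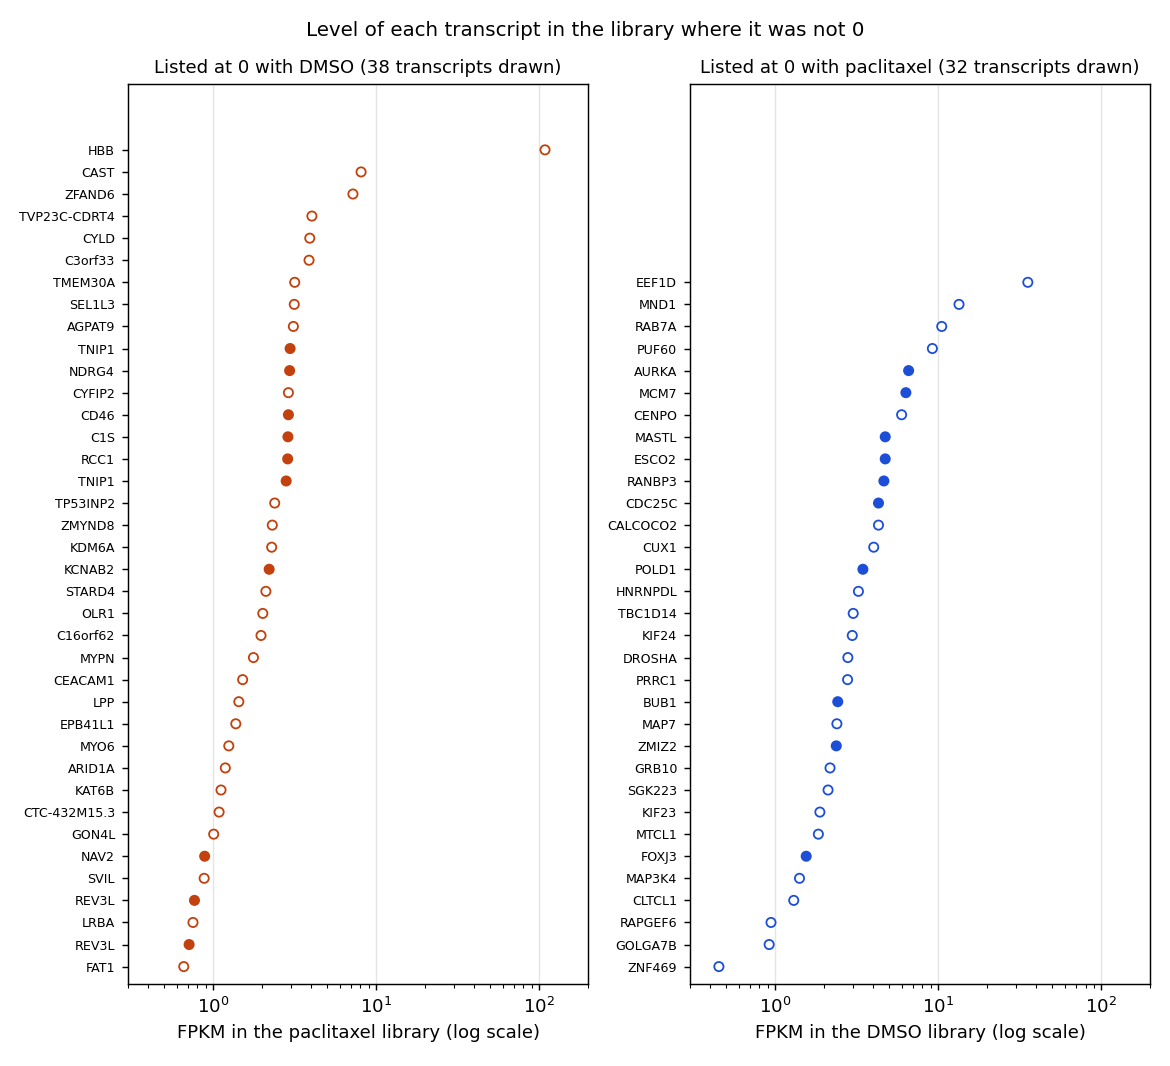
FPKM (log scale) of 70 of the 72 transcripts in the library where it was not 0, with those listed at 0 with DMSO on the left (38 of 40, paclitaxel FPKM) and those listed at 0 with paclitaxel on the right (32, DMSO FPKM). Filled points are transcripts whose gene has another listed transcript; HBB at 108.5 FPKM and EEF1D at 35.4 FPKM are the highest of their columns.

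Just outside the rule stood the transcripts with the lowest values above 0. With paclitaxel they were MYO9B at 0.00552 FPKM (1.17 with DMSO), SLFN11 at 0.0155 FPKM (1.22 with DMSO) and SETD1B at 0.0194 FPKM (1.02 with DMSO). With DMSO they included NDFIP2 at 0.00446 FPKM (4.83 with paclitaxel) and TNFSF14 at 0.00972 FPKM (1.09 with paclitaxel).

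Of the 32 genes with a transcript listed at 0 with paclitaxel, 7 were on a list of genes of mitosis, cytokinesis and DNA replication. Of the 90 genes on this list, 80 were in the table and all 80 were lower with paclitaxel, so that none could be at 0 with DMSO. The 7 members were 5.47% of the 128 listed transcripts of these genes, near the 5.98% over all transcripts lower with paclitaxel. The 7 were AURKA, BUB1, CDC25C, CENPO, KIF23, MCM7 and POLD1. The list is not complete, and the members MASTL and ESCO2, described below, are not on it.

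AURKA encodes Aurora kinase A, which drives centrosome maturation and spindle assembly. Its isoform ENST00000395914 (chr20:56369389-56392295) was listed at 0 FPKM with paclitaxel and at 6.58 FPKM with DMSO. The other 5 listed AURKA isoforms were also lower with paclitaxel, led by ENST00000395915 at 5.29 FPKM with paclitaxel and 39.6 FPKM with DMSO. Summed over the 6, AURKA was at 11.6 FPKM with paclitaxel and 85.2 FPKM with DMSO, and the isoform at 0 was 7.72% of the DMSO sum. It has the same coding exons as ENST00000395915 and adds a 110-nt exon before the coding start. Only 1 base and 1 of its 9 splice junctions are absent from the other 5 listed isoforms.

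BUB1 encodes a kinase of the spindle assembly checkpoint, which delays anaphase until chromosomes are attached. The isoform ENST00000535254 was listed at 0 FPKM with paclitaxel and at 2.42 FPKM with DMSO, and the full-length ENST00000302759 was at 3.64 FPKM with paclitaxel and 36.2 FPKM with DMSO. ENST00000535254 leaves out a 60-nt coding exon. It has no exonic base that the full-length isoform lacks, and 1 of its 23 junctions, the one printed above, is not shared.

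CDC25C is the phosphatase that activates CDK1 at entry into mitosis. Its isoform ENST00000415130 was listed at 0 FPKM with paclitaxel and at 4.30 FPKM with DMSO. The other listed isoform, ENST00000323760, was also lower, at 0.115 FPKM with paclitaxel and 6.59 FPKM with DMSO. The isoform at 0 lacks exons of 90, 34 and 95 nt and was 39.5% of the DMSO sum of the 2 listed isoforms.

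MASTL, the Greatwall kinase that restrains PP2A-B55 in mitosis, had an isoform without a 114-nt coding exon (ENST00000342386) at 0 FPKM with paclitaxel and 4.73 FPKM with DMSO. Its longer isoform was at 1.35 FPKM with paclitaxel and 9.93 FPKM with DMSO. MCM7, a subunit of the replicative helicase, had ENST00000621318 at 0 FPKM with paclitaxel and 6.33 FPKM with DMSO, beside ENST00000303887 at 12.5 FPKM with paclitaxel and 105.4 FPKM with DMSO. The identifier ENST00000621318 was not matched in GENCODE 44, so its exons are not described.

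POLD1, the catalytic subunit of DNA polymerase delta, had ENST00000599857 at 0 FPKM with paclitaxel and 3.45 FPKM with DMSO. The representative isoform ENST00000440232 was at 6.02 FPKM with paclitaxel and 21.3 FPKM with DMSO. Both have the same coding exons. ENST00000599857 holds 31 bases that the other lacks, all outside the coding part, and 1 of its 26 junctions differs by an acceptor 3 nt away.

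ESCO2, an acetyltransferase that establishes sister chromatid cohesion, had the short ENST00000397418 at 0 FPKM with paclitaxel and 4.73 FPKM with DMSO. Its full-length isoform was at 1.6 FPKM with paclitaxel and 11.4 FPKM with DMSO. The short model has other first and last exons and holds 717 coding nucleotides, against 1803 in the long one. RANBP3, a Ran-binding cofactor of nuclear export, had ENST00000034275 at 0 FPKM with paclitaxel and 4.64 FPKM with DMSO, beside ENST00000439268 at 0.658 FPKM with paclitaxel and 4.44 FPKM with DMSO. In DMSO these RANBP3 isoforms were at nearly the same level.

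CENPO, a centromere protein, and KIF23, the kinesin of the central spindle in cytokinesis, had no other listed transcript. CENPO ENST00000260662 was at 0 FPKM with paclitaxel and 5.96 FPKM with DMSO, and has the coding exons of the representative isoform. KIF23 ENST00000559279 was at 0 FPKM with paclitaxel and 1.88 FPKM with DMSO, and leaves out exons of 180 and 312 nt, both entries of the skipped exon table. MND1, a meiotic recombination factor, was the second highest of this side at 0 FPKM with paclitaxel and 13.4 FPKM with DMSO. Its transcript ENST00000240488 (chr4:153344688-153415118) is the representative isoform of the gene, and no other MND1 isoform was in the table.

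Across the 10 genes with a transcript at 0 with paclitaxel and another listed transcript, the others were lower with paclitaxel in 8 and higher in 2. Across the 9 such genes on the DMSO side, the others were higher with paclitaxel in 5 and lower in 2, and in 2 genes both listed transcripts were themselves at 0 with DMSO. The plot of isoform pairs draws 18 of the 19 genes. The other isoforms ran in the same direction as the member in 12 of them, and in the opposite direction in ZMIZ2, FOXJ3, KCNAB2 and RCC1.

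**Figure D2:**
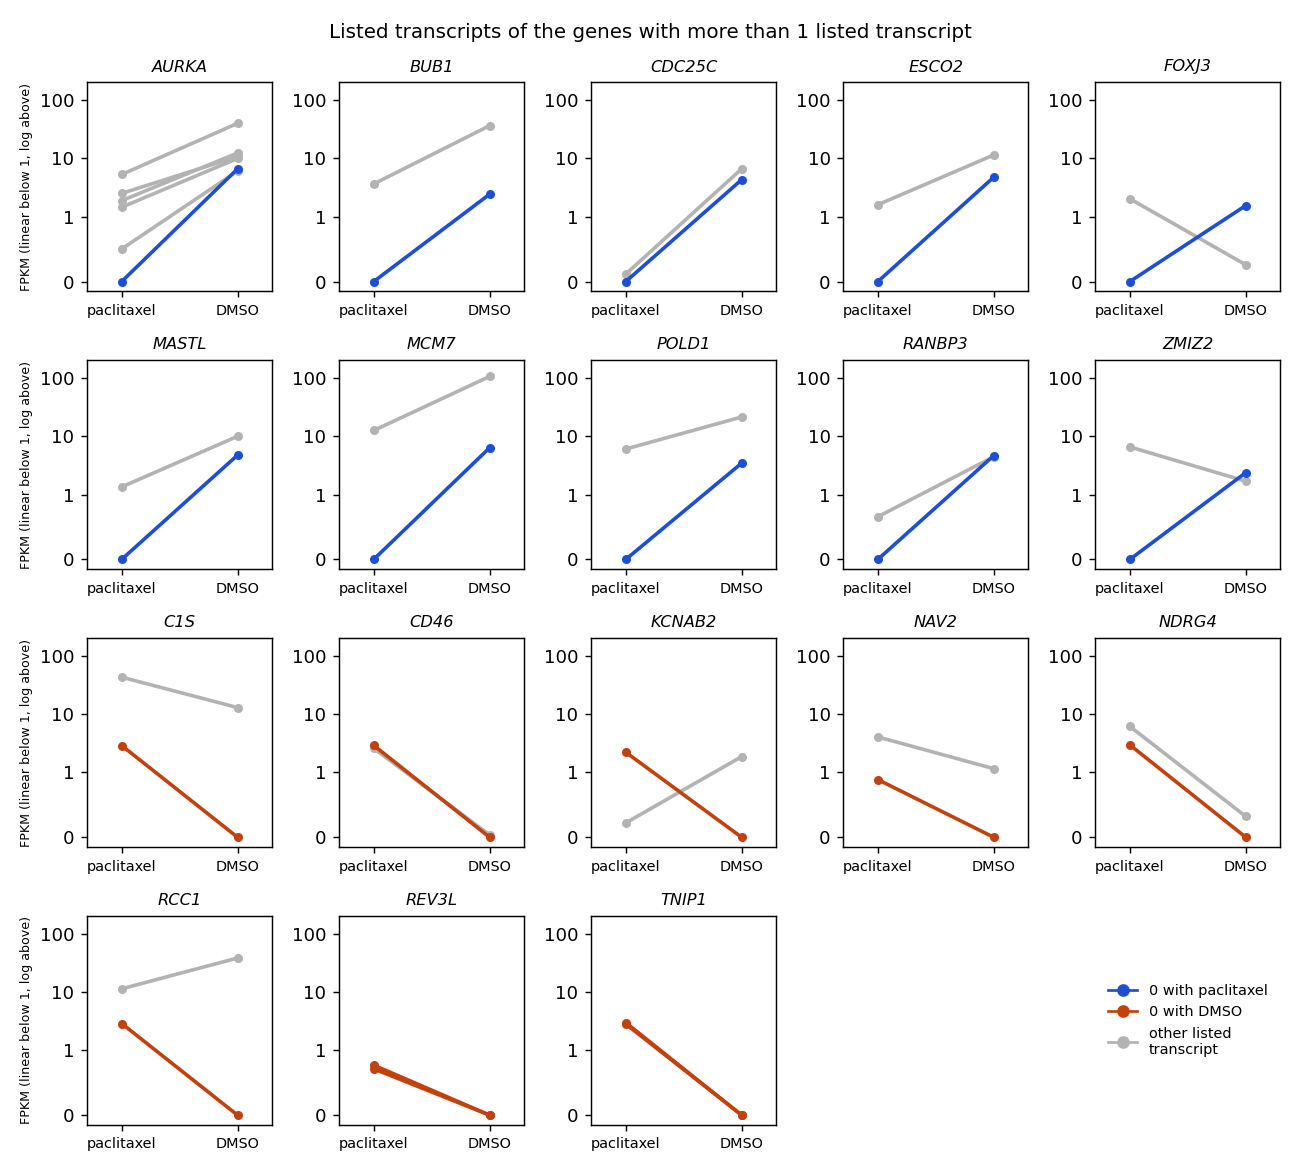
FPKM (linear below 1, log above) of every listed transcript of 18 of the 19 genes with more than 1 listed transcript, paclitaxel left and DMSO right of each panel, 1 library each. Blue lines are transcripts at 0 with paclitaxel, orange lines those at 0 with DMSO and grey lines the other listed transcripts. Lines run in opposite directions in ZMIZ2, FOXJ3, KCNAB2 and RCC1.

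ZMIZ2 encodes a PIAS-like coactivator of nuclear receptors. Its isoform ENST00000433667, which holds the 78-nt exon printed above, was at 0 FPKM with paclitaxel and 2.37 FPKM with DMSO. The isoform without the exon, ENST00000413916, was at 6.53 FPKM with paclitaxel and 1.69 FPKM with DMSO. Summed over its 2 listed isoforms, ZMIZ2 was at 6.53 FPKM with paclitaxel and 4.07 FPKM with DMSO, a log2 ratio of 0.68. The isoform with the exon made up 58.4% of the DMSO sum and none of the paclitaxel sum. The isoforms also begin at different first exons. The paper reported by RT-PCR that skipping of an exon of ZMIZ2 rose with paclitaxel. Whether that exon is the 78-nt one was not checked here.

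FOXJ3, a forkhead transcription factor, ran the other way for its exon. ENST00000361776, which leaves out the 102-nt exon, was at 0 FPKM with paclitaxel and 1.55 FPKM with DMSO. ENST00000372573, which holds it and starts at another first exon, was at 2.02 FPKM with paclitaxel and 0.258 FPKM with DMSO. Summed over the 2 listed isoforms, the level was 2.02 FPKM with paclitaxel and 1.81 FPKM with DMSO (log2 ratio 0.16). The isoform without the exon was 85.7% of this DMSO sum. FOXJ3 has 9 annotated isoforms, and those not in the table have no value here. The level of the whole gene is therefore not known, and the same holds for the sums of ZMIZ2, KCNAB2 and RCC1.

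KCNAB2 encodes a beta subunit of voltage-gated potassium channels. ENST00000378097, which leaves out the 45-nt exon, was at 2.21 FPKM with paclitaxel and 0 FPKM with DMSO. ENST00000341524, which holds it, was at 0.222 FPKM with paclitaxel and 1.86 FPKM with DMSO. ENST00000378097 also holds 494 bases that ENST00000341524 lacks (11.5% of its length), and its first exon begins further upstream. The sum of the 2 listed isoforms was 2.43 FPKM with paclitaxel and 1.86 FPKM with DMSO (log2 ratio 0.39). The isoform at 0 with DMSO made up 90.9% of this paclitaxel sum.

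RCC1, the guanine nucleotide exchange factor of Ran on chromatin, differed from these 3 genes in the sum of its listed isoforms. ENST00000398958 was at 2.87 FPKM with paclitaxel and 0 FPKM with DMSO, and ENST00000373832 was at 11.3 FPKM with paclitaxel and 38.1 FPKM with DMSO. The summed level of these 2 isoforms was 14.1 FPKM with paclitaxel and 38.1 FPKM with DMSO (log2 ratio -1.43). The coding exons of these isoforms are the same, and they begin at different first exons. With paclitaxel the isoform at 0 in DMSO was 20.3% of the sum.

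**Figure D3:**
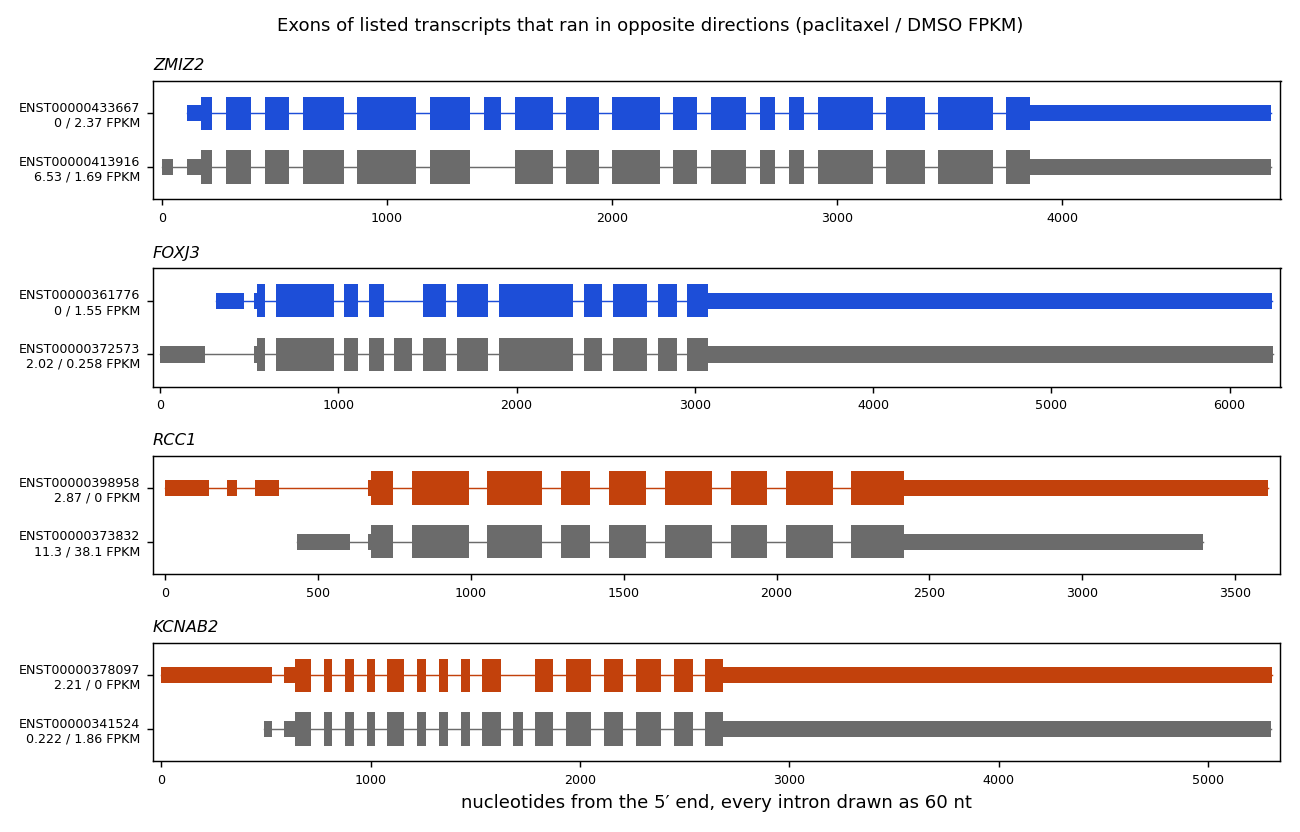
Exons of the listed transcripts of ZMIZ2, FOXJ3, RCC1 and KCNAB2, drawn in nucleotides from the 5′ end with every intron shortened to 60 nt; tall blocks are coding, low blocks are untranslated, and the labels give paclitaxel / DMSO FPKM. Coloured transcripts are at 0 in one library (blue with paclitaxel, orange with DMSO), and grey ones are the other listed transcript. The coding parts differ by a single internal block in ZMIZ2, FOXJ3 and KCNAB2, and the untranslated 5′ ends of these isoforms differ as well.

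Among the transcripts listed at 0 with DMSO, HBB stood apart. It encodes the beta chain of adult hemoglobin and is a defining gene of red blood cells. HBB ENST00000335295 (chr11:5225464-5227071) was at 108.5 FPKM with paclitaxel and 0 FPKM with DMSO, and it is the representative isoform. The alpha chain genes HBA1 and HBA2 were in the table too, at 161.2 and 188.4 FPKM with paclitaxel and 0.0615 and 0.0566 FPKM with DMSO. HBA1 and HBA2 are near-identical copies, so their separate values are uncertain. Summed over the 3 globins the level was 458.1 FPKM with paclitaxel and 0.118 FPKM with DMSO. The other 12 genes of the red blood cell list, including ALAS2, AHSP, SLC4A1 and the fetal globins, were not in the table. Of 12 immune cell markers only S100A9 was listed, at 5.85 FPKM with paclitaxel and 0.123 FPKM with DMSO, and none of 10 fibroblast and endothelial markers was. Whether cells or RNA of another source contributed to the HBB value was not tested.

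Chromatin modifiers gave 3 transcripts listed at 0 with DMSO and none at 0 with paclitaxel. Of the 69 genes on the list, 10 were in the table, 4 higher and 6 lower with paclitaxel. The 3 were among 4 higher transcripts of the list (75%), beside 8.73% over all transcripts higher with paclitaxel, a count too small to read as a property of the group. KDM6A, a histone H3 lysine 27 demethylase, had an isoform without exons of 135 and 156 nt at 2.29 FPKM with paclitaxel and 0 FPKM with DMSO. ARID1A, the DNA-binding subunit of SWI/SNF remodelers, had ENST00000374152 at 1.19 FPKM with paclitaxel and 0 FPKM with DMSO. KAT6B, a histone acetyltransferase, had ENST00000372724 at 1.12 FPKM with paclitaxel and 0 FPKM with DMSO. These isoforms of ARID1A and KAT6B have coding parts of 5706 and 5670 nt, both shorter than in the representative ones.

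CD46 and C1S belong to the complement system, CD46 as a membrane cofactor that protects host cells and C1S as a serine protease of the first component. CD46 ENST00000322875 was at 2.90 FPKM with paclitaxel and 0 FPKM with DMSO, and ENST00000360212 was at 2.57 FPKM with paclitaxel and 0.0372 FPKM with DMSO. Both listed CD46 isoforms were at or near 0 with DMSO, and no other CD46 isoform was in the table. C1S ENST00000402681, which leaves out a 208-nt exon, was at 2.88 FPKM with paclitaxel and 0 FPKM with DMSO. Its other listed isoform was at 42.8 FPKM with paclitaxel and 12.9 FPKM with DMSO.

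TNIP1, an inhibitor of NF-κB signalling that binds A20, and REV3L, the catalytic subunit of the translesion polymerase zeta, each had both listed transcripts at 0 with DMSO. For TNIP1 these were at 2.97 and 2.81 FPKM with paclitaxel. For REV3L they were at 0.770 and 0.714 FPKM with paclitaxel. No TNIP1 or REV3L isoform with a level above 0 in DMSO was in the table, so the sum for the gene in DMSO is not known.

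NDRG4 and NAV2 are best known from the nervous system, NAV2 as a protein of neurite growth. NDRG4 ENST00000562999 was at 2.95 FPKM with paclitaxel and 0 FPKM with DMSO, beside ENST00000258187 at 6.12 FPKM with paclitaxel and 0.321 FPKM with DMSO. NAV2 ENST00000396087, which adds exons of 69, 99 and 9 nt, was at 0.889 FPKM with paclitaxel and 0 FPKM with DMSO, beside ENST00000349880 at 4.05 FPKM with paclitaxel and 1.16 FPKM with DMSO. In both genes the other isoform moved in the same direction as the one at 0.

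EEF1D was the highest transcript at 0 with paclitaxel. It encodes a subunit of the complex that recharges elongation factor 1A with GTP. ENST00000531218 was at 0 FPKM with paclitaxel and 35.4 FPKM with DMSO, and it leaves out a 1091-nt exon of the representative isoform. No other EEF1D transcript was in the table, and of the 53 genes on the translation list EEF1D was the 1 listed. RAB7A, a GTPase of late endosomes, and PUF60, a splicing factor, likewise had 1 listed transcript each. RAB7A ENST00000482525, whose annotation is incomplete at an end, was at 0 FPKM with paclitaxel and 10.5 FPKM with DMSO. PUF60 ENST00000349157, without a 51-nt exon, was at 0 FPKM with paclitaxel and 9.20 FPKM with DMSO.

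EEF1D, RAB7A and PUF60 are used by most cells, and their other isoforms, not being in the table, have no value here. The RAB7A isoform also has a coding junction of its own, printed in the same way as those above. Its donor site lies inside a coding exon, 141 nt before the one used by the representative isoform.

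RAB7A ENST00000482525, intron chr3:128806450-128807542, plus strand: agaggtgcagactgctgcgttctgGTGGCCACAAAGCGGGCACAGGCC

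HNRNPDL, which binds RNA and takes part in splicing, was the only member on the list of 69 splicing and RNA-binding genes, which does not hold PUF60. HNRNPDL was 1 of 4 transcripts of that list lower with paclitaxel (25%), beside 5.98% over all lower transcripts, a count too small to read. Its ENST00000621267 was at 0 FPKM with paclitaxel and 3.24 FPKM with DMSO. It shares all 7 junctions and all but 4 bases with the representative isoform. CYFIP2, a WAVE complex subunit and p53 target, was the only member among the 20 listed p53 targets, all of which were higher with paclitaxel. CYFIP2 was 1 of the 33 listed transcripts of these targets (3.03%), beside 8.73% over all higher transcripts, and nothing is read from 1 member. Its ENST00000521420, without a 78-nt exon, was at 2.90 FPKM with paclitaxel and 0 FPKM with DMSO. The lists of DNA repair, NF-κB and interferon, and ubiquitin genes held no member, nor did the 55 listed histone genes. The DNA repair list had 25 lower and 2 higher transcripts, and the ubiquitin list had 8 lower and 8 higher. The NF-κB and interferon list had 27 higher transcripts, and the histone genes, all lower with paclitaxel, had 58. Members were 5.98% of all lower transcripts and 8.73% of all higher ones. With so few transcripts per list, nothing is read from the absence of members. These lists are not complete, and the members REV3L, TNIP1 and CYLD, which act in those processes, are not on them.

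On the paclitaxel side the remaining named transcript is that of CALCOCO2, an autophagy receptor, at 0 FPKM with paclitaxel and 4.30 FPKM with DMSO. It adds a 72-nt exon. On the DMSO side CAST, the calpain inhibitor calpastatin, was at 8.09 FPKM with paclitaxel and 0 FPKM with DMSO. ZFAND6, a zinc finger protein, was at 7.21 FPKM with paclitaxel and 0 FPKM with DMSO and leaves out a 163-nt exon that lies outside its coding part. CYLD, a deubiquitinase, was at 3.92 FPKM with paclitaxel and 0 FPKM with DMSO and leaves out a 9-nt exon.

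C3orf33 was at 3.88, TMEM30A at 3.17, SEL1L3 at 3.15 and AGPAT9 (now GPAT3) at 3.11 FPKM with paclitaxel, all at 0 FPKM with DMSO. TMEM30A is the beta subunit of phospholipid flippases and GPAT3 makes lysophosphatidic acid. The GPAT3 isoform has the same coding exons as the representative one, and the C3orf33 transcript is the representative one. The remaining transcripts at 0 with DMSO included those of TP53INP2, ZMYND8, STARD4, OLR1, C16orf62 (now VPS35L), MYPN, CEACAM1, LPP, EPB41L1, MYO6, GON4L, SVIL, LRBA and FAT1, at 0.662 to 2.39 FPKM with paclitaxel. Those at 0 with paclitaxel were CUX1, TBC1D14, KIF24, DROSHA, PRRC1, MAP7, GRB10, SGK223, MTCL1, MAP3K4, CLTCL1, GOLGA7B and ZNF469, at 0.452 to 4.02 FPKM with DMSO.

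One locus held a member on each side. CTC-432M15.3 ENST00000514667 (chr5:131425891-131796983), annotated as a gene of its own that runs over RAPGEF6 and FNIP1, was at 1.09 FPKM with paclitaxel and 0 FPKM with DMSO. RAPGEF6, a guanine nucleotide exchange factor for Rap GTPases, had ENST00000296859 (chr5:131426559-131635111) at 0 FPKM with paclitaxel and 0.943 FPKM with DMSO. They share 25 of 28 junctions. FNIP1, the folliculin partner at the other end, was at 2.91 FPKM with paclitaxel and 0.243 FPKM with DMSO, and shares 1 junction with the joint transcript. Since these transcripts overlap on the same strand, the reads of their shared exons could be assigned to either, and the split between them is uncertain.

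TVP23C-CDRT4 ENST00000522212 (chr17:15436021-15563561) was likewise a transcript that joins neighbouring genes, at 4.04 FPKM with paclitaxel and 0 FPKM with DMSO. It shares 4 of its 6 junctions with the representative transcript of TVP23C and 1 with that of CDRT4. Neither TVP23C nor CDRT4 was in the table under its own name.

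A smaller share of the members than of the rest of the table were the representative isoform of their gene. MANE Select is a single transcript per protein-coding gene chosen jointly by the Ensembl and RefSeq annotators. This held for 9 of the 64 members matched in GENCODE 44 (14.1%), of which 7 of 36 were at 0 with DMSO (19.4%) and 2 of 28 at 0 with paclitaxel (7.14%). Of the 872 matched transcripts above 0 in both libraries, 484 were MANE Select (55.5%). The members' share depends on the rule: with at most 0.05 FPKM counted as 0, an alternative chosen after the data had been seen, it was 27.3%, and the transcripts added by that limit alone were 51.4% MANE Select. The 9 were HBB, C3orf33, TP53INP2, OLR1, MYPN, CEACAM1 and SVIL, listed at 0 with DMSO, and MND1 and MAP3K4, listed at 0 with paclitaxel.

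Read support differs between these sets. FPKM times transcript length in kilobases, which rises with the fragments behind a value, had a median of 8.69 for the members in the library above 0 and 24.3 for the rest in their higher library. Among the 202 transcripts of the rest between the 10th and 90th percentile of the members, 6.58 to 16.1, 74 were MANE Select (36.6%), a comparison chosen after the data had been seen. Genes of members had a median of 16 annotated transcripts, against 9 for the rest and 10 for the 202. These shares are descriptions of fixed lists and were not tested.

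Against the MANE Select transcript of the gene, 53 members could be compared. Of these 12 had the same coding exons (22.6%), against 95 of 384 in the rest of the table (24.7%), and 35 coded for fewer nucleotides and 6 for more. The first exon was another in 17, the last exon in 4, and an exon was left out in 29 and added in 9. An exon counted as left out or added lies wholly inside an intron of the other transcript. Some of these are first exons, so the counts overlap. Of the 42 internal coding exons that differed, 33 had a length that is a multiple of 3 (78.6%), and in the rest of the table this was so for 123 of 160 (76.9%). Of all 61 exons left out or added, 25 were entries of the skipped exon table, in 20 transcripts. These entries, and the counts of first, last, left out and added exons, are given for the members only. They are therefore not read as traits of the members.

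Few bases were held by the member and not by the MANE Select transcript. Of the 53, 16 had no exonic base of their own and had at least 1 junction of their own. A further 6, among them HNRNPDL, GRB10, C16orf62, ARID1A and LRBA, had bases of their own and no junction of their own. The median member had 37 bases of its own, 1.18% of its length, and 34 of the 53 had at most 1 junction of their own. The rest of the table was not counted in this way, so these values are not particular to the members.

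Longer members had lower values. The 19 members of at least 5000 nt had 0.452 to 2.90 FPKM in the library above 0 (median 1.19), and the 12 under 2000 nt had 3.88 to 108.5 FPKM (median 8.21). Spearman's rho between length and FPKM was -0.83 over the 64 transcripts, which share the same pair of libraries and have length in the denominator of FPKM. The plot of length against level shows both sides on the same band.

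**Figure D4:**
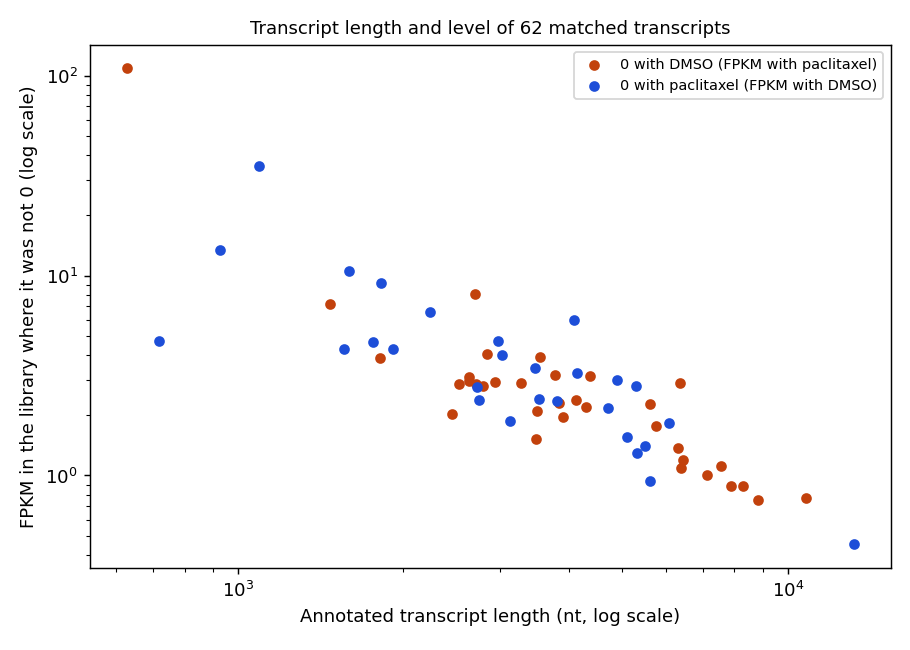
FPKM in the library where the transcript was not 0 against annotated transcript length (nt), both on log scales, for 62 of the 64 transcripts matched in GENCODE 44; orange points were at 0 with DMSO and blue points at 0 with paclitaxel. Points fall on a band that descends with length, with HBB (108.5 FPKM) at the top left.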

How the data were processed

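Paired-end libraries of A549 cells, 1 with paclitaxel and 1 with DMSO, were mapped to hg38 by the authors with MapSplice per the methods. Base calling with CASAVA 1.8.2 and the tools TopHat and Cufflinks are credited to the submitters' processing notes. The deposited FPKM values are the authors' Cufflinks estimates per transcript, in a table restricted to transcripts that passed their test. Cufflinks splits shared fragments among isoforms by likelihood, so a small difference in sequence can move a whole estimate. The column with the suffix T was taken as paclitaxel from its name. The authors' fold changes, p-values and q-values, and the inclusion differences of the deposited table of 35827 skipped exon events, were not used, nor were 6 per-library columns of the latter. Read depth is unknown, so no counting interval is given.

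Members were transcripts at exactly 0 FPKM in 1 library. The members and gene lists were chosen with earlier results of these data known. Exons, junctions and sequences came from GENCODE 44 by transcript identifier, and 936 of 993 transcripts matched with the same gene identifier. Of these, 762 (81.4%) lie wholly inside the listed locus. Which annotation release the authors used is not given. The comparison of exons was tested on simulated transcripts. Named were the 12 highest members per side, every member whose gene has another listed transcript, every member on a list, and the 3 lowest values above 0 per side, with the rest by name and range. Python 3.11.15, numpy 2.4.6, scipy 1.17.1 and matplotlib 3.10.9 were used. A few genes are not reported here and were left out of the text and the figures, while the counts include them.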

Additional observations from a re-analysis of the deposited data

How the results depend on the processing

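No paired analysis was possible because there is 1 library per condition, and leaving out a replicate could not be run for the same reason. Requiring at least 5 FPKM in the other library left 4 of the 40 transcripts at 0 with DMSO and 7 of the 32 at 0 with paclitaxel. Counting at most 0.05 FPKM as 0 gave 70 with DMSO and 43 with paclitaxel, and at most 0.01 FPKM gave 43 and 33. At most 0.001 FPKM gave 40 and 32, the same counts as exactly 0. The number of genes with another listed transcript was 19, and 17 to 19 under the alternatives. Among the 50 largest changes by log2(FPKM + pseudocount), members numbered 3 with a pseudocount of 1 FPKM, 33 with 0.1 and 1 with 10. The share that is MANE Select was 14.1%, 13.8% for members with at least 1 FPKM, and 27.3% with at most 0.05 FPKM as 0, both chosen after seeing the data.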

Other observations

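The transcripts between 0 and 0.05 FPKM in one library numbered 41, of which 30 were near 0 with DMSO and 11 with paclitaxel. Of the 35 that matched GENCODE 44, 18 were MANE Select (51.4%). Among them were NDFIP2, an adaptor of NEDD4 ligases, at 4.83 FPKM with paclitaxel and 0.00446 FPKM with DMSO, and MID1IP1, a regulator of lipid synthesis, at 0.0308 FPKM with paclitaxel and 4.92 FPKM with DMSO. SPIN4 was at 0.0391 FPKM with paclitaxel and 4.69 FPKM with DMSO. BCL9, a coactivator of beta-catenin, was at 2.68 FPKM with paclitaxel and 0.0251 FPKM with DMSO. BMP2, a secreted growth factor, was at 0.737 FPKM with paclitaxel and 0.0118 FPKM with DMSO.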
